A study of Mus musculus with 28 samples.

Results

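Axon guidance ligands and receptors were followed in RNA-seq libraries of a Myt1l knockout mouse line. Myt1l encodes a neuronal transcription factor of the MYT1 zinc-finger family. The set held 42 genes chosen by symbol, of 14879 genes listed in either of the deposited tables. It comprised 13 ephrins and Eph receptors, 17 semaphorins, plexins and neuropilins, 6 Slit and Robo genes and 6 genes of the netrin pathway, with 19 ligands and 23 receptors in all. Each tissue table held 41 of them. Robo3 was not listed in the E14.5 table and Draxin was not listed in the adult table.

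The embryonic groups were embryonic cortex (E14.5, the embryonic day) from 4 homozygous mutants (Hom, 3 females and 1 male), 6 heterozygous mutants (Het, 3 and 3) and 6 wild types (WT, 5 and 1). The adult groups were prefrontal cortex (PFC) from 6 Het and 6 WT mice, with 3 females and 3 males in each. The labels name the line as a MYT1L knockout and do not describe the allele, the strain or the age of the adults. Each library carries its own animal identifier, and Hom and Het embryos are compared with the same 6 WT libraries.

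Growing axons read cues on and around the cells they pass. Ephrins are membrane-bound ligands that signal on contact through Eph receptor tyrosine kinases, mostly as repellents. Secreted class 3 semaphorins act through neuropilins paired with plexins, and other semaphorins bind plexins directly. Slits repel axons through Robo receptors, and netrin attracts them through DCC or repels them through UNC5 receptors. In the cortex these families take part in the sorting of thalamic, callosal and corticofugal axons and in neuronal migration, and several act at synapses later in life.

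Myt1l itself was lower in Hom embryos, at 18.2 to 23.3 CPM (read counts scaled to library size) against 45.9 to 66.6 CPM in WT embryos, a log2 change of -1.43 (SE 0.16, limma adjusted p = 0.000112). Het embryos had 30.6 to 59.5 CPM, and their log2 change of -0.39 missed the threshold (adjusted p = 0.125). In the adult PFC it was lower in Het mice, at 105 to 121 CPM against 146 to 168 CPM in WT mice (log2 change -0.47, SE 0.06, adjusted p = 0.000139). Markers of cortical projection neurons were present in each library, with a summed level of 1778 to 2085 CPM in Hom, 1642 to 2232 CPM in Het and 1485 to 1876 CPM in WT embryos. The libraries labelled Het F10 and Het M11 went against their labelled sex, with the Y-linked Ddx3y at 21.6 CPM in Het F10 and at 0 in Het M11. Isl1, a marker of ventral telencephalon, exceeded the highest WT library (5.11 CPM) in 3 mutant libraries, with 16.4 CPM for Hom F01, 15.95 CPM for Hom M02 and 12.7 CPM for Het M07. For members named below whose call changes without these libraries, that value is given beside the result. The fit without high Isl1 keeps only Hom F04 and Hom F09 in the Hom group. Calls over all tested genes in Hom against WT fell from 944 to 414 in it. The part of fewer libraries in a lost call was not tested.

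Among 40 members tested in Hom embryos, the receptors Epha7 and Plxna3 were lower and the ligand Efna2 was higher than in WT embryos. A gene is called when its limma p, adjusted by the Benjamini-Hochberg method over all tested genes, is under 0.05. These 3 calls among 40 members stand beside a background of 7.6% of all tested genes (944 of 12429), with 3.23% called higher and 4.37% called lower. The members' share was therefore near that of the whole table. The same 3 genes were the members whose Hom libraries all lay on one side of the WT range, beside 9.9% of all tested genes. Slit1 was too low for the test at E14.5, with group means of 0.559 CPM in Hom, 0.603 CPM in Het and 0.664 CPM in WT embryos.

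The windows just upstream of the annotated starts of the 3 called genes are shown as part of the sequence in which a promoter motif was searched. They are the 150 bases before each RefSeq start on the plus strand of GRCm38.p6, at chr4:28812981-28813130 for Epha7, chr10:80179332-80179481 for Efna2 and chrX:74328916-74329065 for Plxna3.
Epha7: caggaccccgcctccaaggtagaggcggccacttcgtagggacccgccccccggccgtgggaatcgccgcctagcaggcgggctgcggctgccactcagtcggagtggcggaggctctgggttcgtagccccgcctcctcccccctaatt
Efna2: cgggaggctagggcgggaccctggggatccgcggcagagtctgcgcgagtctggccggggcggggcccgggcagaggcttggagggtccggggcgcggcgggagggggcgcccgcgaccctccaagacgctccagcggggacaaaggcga
Plxna3: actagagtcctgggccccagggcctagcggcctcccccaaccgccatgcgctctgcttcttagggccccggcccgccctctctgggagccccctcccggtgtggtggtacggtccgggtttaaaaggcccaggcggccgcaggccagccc
All 3 windows are rich in G and C, at 71.3%, 78% and 72% of bases in the order shown.

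The motif AAGTTT, a core bound by zinc fingers of the MYT1 family, was searched on both strands from 250 bases before to 50 bases after each RefSeq start. It was in 14.4% of all windows (4721 of 32851) and in 11.6% of the members' windows (5 of 43, from 35 members with a window). None of the windows of Epha7, Efna2 and Plxna3 held it. The 5 member sites are shown with 12 bases on each side, on the strand of the gene, with the motif or its reverse complement in capitals.
Sema3a: gcttagatttgaAAACTTgaaatgttagaa
Slit2: tttctggtggccAAGTTTgctggatcctag
Nrp1: gcacgcggagagAAACTTgtgtctctgaat
Ephb1: ccttgcaagcaaAAGTTTttcttaaactaa
Epha3: atctccagtgtcAAACTTgacatcagactg
They lie at chr5:13396712-13396741, chr5:47982929-47982958, chr8:128358906-128358935, chr9:102354825-102354854 and chr16:63864152-63864181, in the same order, and the first 3 genes are on the plus strand. A gene can have more than 1 RefSeq start. The Sema3a and Nrp1 sites lie inside the GENCODE spans of these genes, 13125414 to 13602565 and 128358604 to 128503363. The Epha3 motif lies 6 bases after its RefSeq start. None of these 5 genes was called in a genotype comparison. These letters do not show whether MYT1L binds there.

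**Figure D1:**
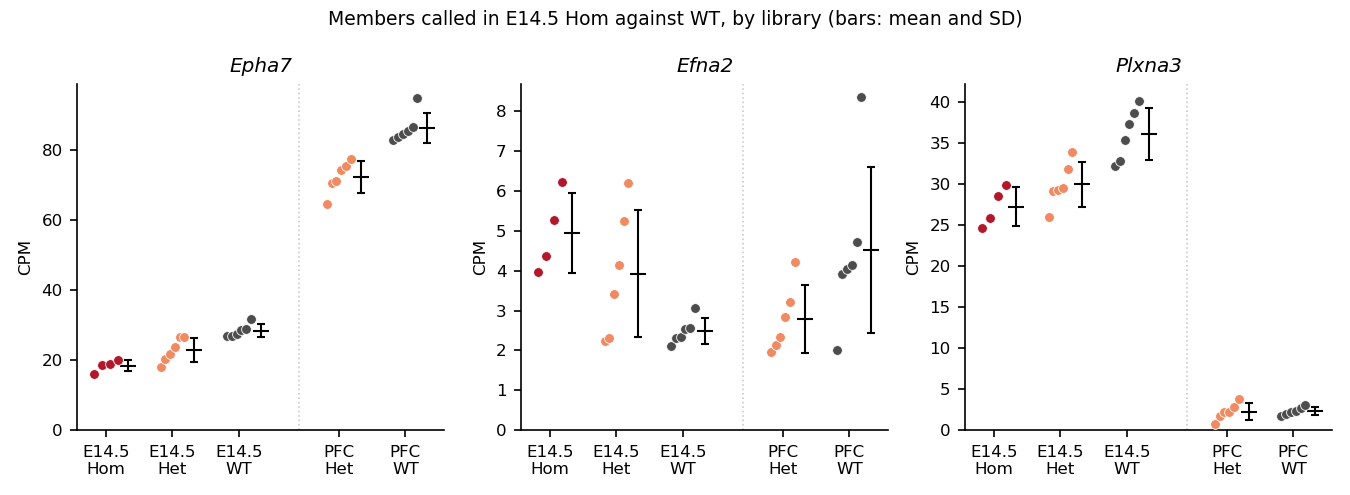
CPM of Epha7, Efna2 and Plxna3 in each library of the 5 groups (points) with the group mean and SD (black bars); the dotted line separates tables that were normalized separately. In E14.5 cortex the 4 Hom libraries lay below every WT library for Epha7 and Plxna3 and above every WT library for Efna2, and Epha7 in the PFC of Het mice lay below every WT library.

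Epha7, a receptor for A-type ephrins that takes part in topographic mapping of cortical and thalamic axons, was the clearest change. It is protein coding (ENSMUSG00000028289) and lies on the plus strand of chromosome 4, from 28813131 to 28967499. It measured 16.1, 18.9, 18.5 and 20.1 CPM in the Hom libraries F01, F04, F09 and M02. Het embryos had 18.03 CPM at the lowest, 22.7 CPM at the median and 26.7 CPM at the highest, against 26.8, 27.9 and 31.6 CPM in WT embryos. No Hom or Het library reached the WT range, and the Hom and Het ranges overlapped.

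The means were 18.4 CPM ± 1.67 in Hom (SD, n = 4), 22.8 CPM ± 3.496 in Het (SD, n = 6) and 28.4 CPM ± 1.82 in WT embryos (SD, n = 6). The log2 change was -0.61 in Hom against WT (SE 0.11, limma adjusted p = 0.00305), rank 62 by p among 12429 genes. This call held in 29 of 29 alternative settings, with log2 changes from -0.72 to -0.54 and adjusted p up to 0.0241. Without the libraries with high Isl1 the log2 change was -0.62 (adjusted p = 0.0152). In these bulk tissues, fewer cells that express Epha7 and less Epha7 RNA per cell cannot be told apart.

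The Het change of Epha7 missed the threshold at E14.5. Its log2 value was -0.30 (SE 0.11, adjusted p = 0.0921), with 6 of 6 Het libraries below the WT mean, and it passed in 3 of 29 alternatives. Without Het F10 the log2 change was -0.36 (adjusted p = 0.0466), and without Het M07 it was -0.34 (adjusted p = 0.0380). The difference between Hom and Het embryos was -0.31 (SE 0.12, adjusted p = 0.957), so a difference between the mutant genotypes was not shown.

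In the adult PFC, Epha7 measured 64.5, 72.7 and 77.4 CPM in Het mice (lowest, median and highest), against 82.9, 85.0 and 94.7 CPM in WT mice. The ranges did not overlap, which was so for 0.668% of all tested genes and for no other member. The means were 72.2 CPM ± 4.55 in Het and 86.3 CPM ± 4.33 in WT mice (SD, n = 6 each). The log2 change of -0.26 (SE 0.06, limma adjusted p = 0.0531) lay just outside the threshold, at rank 69 of 12870 genes. It passed in 5 of 22 alternatives, among them the fit without Het M05 (log2 change -0.28, adjusted p = 0.0354) and the fit without WT M07 (log2 change -0.27, adjusted p = 0.0499). The interaction of genotype and sex for Epha7 was 0.11 on the log2 scale and was not called (SE 0.12, adjusted p = 0.825).

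Efna2, a ligand of EphA receptors anchored to the membrane by a lipid tail, was higher in Hom embryos. It is protein coding (ENSMUSG00000003070) and lies on the plus strand of chromosome 10, from 80179482 to 80190010. The Hom libraries F01, F04, F09 and M02 had 3.96, 4.37, 6.22 and 5.28 CPM. Het embryos ran from 2.24 through a median of 3.78 to 6.21 CPM, against 2.11, 2.44 and 3.06 CPM in WT embryos. Each Hom library lay above each WT library, while Het libraries spread across both ranges.

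Efna2 averaged 4.96 CPM ± 1.01 in Hom embryos (SD, n = 4), 3.93 CPM ± 1.60 in Het embryos and 2.49 CPM ± 0.325 in WT embryos (SD, n = 6 each). The Hom minus WT difference was 0.83 in log2 (SE 0.22, limma adjusted p = 0.0232), and the call held in 24 of 29 alternatives. It was lost without Hom F04 (0.85, adjusted p = 0.0535), without Hom F09 (0.69, adjusted p = 0.103) and without WT M03 (0.72, adjusted p = 0.0625). It was also lost without the libraries with high Isl1, where the log2 change was 1.00 (adjusted p = 0.0590), and with the directions removed by the authors' adjustment as covariates (0.82, adjusted p = 0.0519).

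Efna2 was not called in the other comparisons. Het embryos differed from WT by 0.38 on the log2 scale (SE 0.21, adjusted p = 0.290). In the PFC, Het mice had 1.96, 2.59 and 4.23 CPM (lowest, median and highest), against 2.00, 4.09 and 8.36 CPM in WT mice. The ranges overlapped, with a log2 value of -0.55 (SE 0.23, adjusted p = 0.269).

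Markers of the GABAergic lineage exceeded the WT range in some mutant libraries. Hom F01 (122 CPM) and Hom M02 (93.9 CPM) lay above it, while Hom F04 (53.7 CPM) and Hom F09 (41.5 CPM) lay within it. Het M01, M07 and F07 lay above it, and Het F10, M11 and F02 lay within it. The summed level of these markers was 41.5 to 122 CPM in Hom, 42.3 to 92.1 CPM in Het and 32.97 to 60.2 CPM in WT embryos. Of 8 tested, 2 (Dlx1 and Sp9) were called higher in Hom embryos. The 8 listed markers of ventral telencephalon and striatum summed to 21.9 to 40.7 CPM in Hom, 17.9 to 46.9 CPM in Het and 19.5 to 28.6 CPM in WT embryos, and 1 of 8 (Ppp1r1b) was called higher while 5 of 8 had log2 values below 0 in Hom against WT. Nkx2-1 and Gsx2 were not listed in the E14.5 table. All 7 mitochondrially encoded transcripts had values above 0 in Hom against WT, and 1 of them, mt-Co3, was called higher. In Het against WT embryos all 7 were also above 0, with a median log2 value of 0.33 against 0.22 in Hom, and mt-Co2 and mt-Co3 were called higher. Markers of choroid plexus summed to 1616 to 2944 CPM in Hom, 3047 to 5286 CPM in Het and 1432 to 4062 CPM in WT embryos, and 6 of 6 were above 0 in Het against WT, none called, with a median of 0.50. The part of these cells and of RNA quality in the results was not tested beyond the fits without the libraries with high Isl1.

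Plxna3, a plexin that pairs with neuropilins to receive class 3 semaphorins, was lower in Hom embryos. It is protein coding (ENSMUSG00000031398) and lies on the X chromosome from 74329066 to 74344689 on the plus strand. The Hom libraries F01, F04, F09 and M02 had 24.6, 29.9, 25.9 and 28.5 CPM. Het embryos ran from 26.0 through a median of 29.4 to 33.9 CPM, against 32.2, 36.3 and 40.2 CPM in WT embryos. Hom and WT embryos did not overlap, and 1 of 6 Het libraries lay within the WT range.

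The Plxna3 means were 27.2 CPM ± 2.40 in Hom (SD, n = 4), 29.95 CPM ± 2.71 in Het (SD, n = 6) and 36.1 CPM ± 3.18 in WT embryos (SD, n = 6). The Hom minus WT difference was -0.40 in log2 (SE 0.10, limma adjusted p = 0.0141). The gene is X-linked and the groups differ in sex, and without the sex covariate the log2 change was -0.40 (adjusted p = 0.0138). The call held in 27 of 29 alternatives. It was lost without Hom F01 (-0.36, adjusted p = 0.0584) and without the libraries with high Isl1 (-0.37, adjusted p = 0.0979). Het embryos differed from WT by -0.28 (SE 0.09, adjusted p = 0.0692), with 6 of 6 libraries below the WT mean. In the adult PFC it was near the lower end of the members, at 0.782 to 3.72 CPM in Het mice and 1.77 to 3.02 CPM in WT mice (log2 change -0.12, SE 0.23, adjusted p = 0.859).

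**Figure D2:**
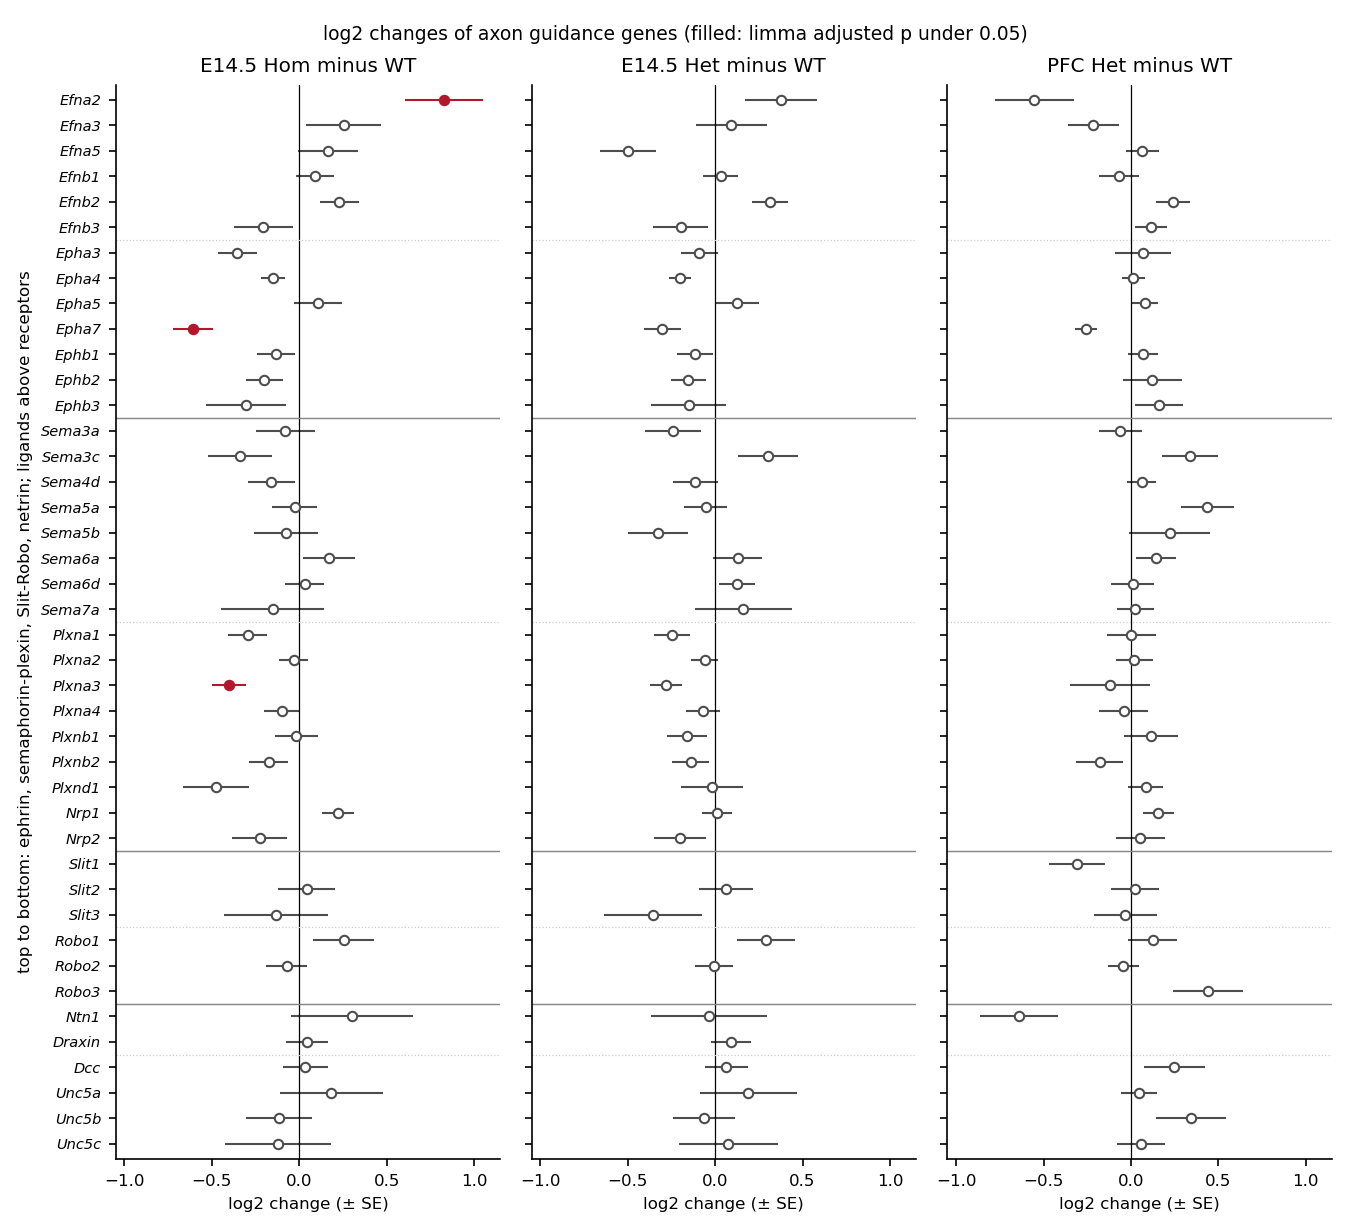
Log2 changes with their SE for each tested member in Hom against WT and Het against WT at E14.5 and in Het against WT in the adult PFC, with ligands above receptors within each class; filled red points passed limma's test. Epha7 (-0.61), Plxna3 (-0.40) and Efna2 (0.83) in Hom embryos are the filled points, and no Het comparison has one.

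Of the 7 Eph receptors in the set, Epha7 alone was called in any comparison. Ephb4, an Eph receptor outside the set, was called lower in Hom embryos (-0.69, limma adjusted p = 0.0215) and is described further below. In Hom against WT embryos 6 of 7 Eph receptors had values below 0 on the log2 scale, with a median of -0.20, against a median of 0.02 over all tested genes. The exception was Epha5, at 0.11 (SE 0.14). Over 29 alternative settings the count below 0 ran from 5 to 7 of 7. With GC and length correction, and without the libraries with high Isl1, it was 7 of 7. Epha3, a receptor of A-type ephrins, had the lowest p of the set's Eph receptors after Epha7. Its log2 change was -0.35 (SE 0.11, adjusted p = 0.0533), and it passed in 10 of 29 alternatives. Without the libraries that went against their labelled sex it was -0.36 (adjusted p = 0.0116). Its Hom libraries ran from 34.4 to 47.6 CPM, Het libraries from 38.1 to 62.8 CPM and WT libraries from 46.1 to 51.7 CPM. Only Hom M02 lay within the WT range.

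Epha4, which binds both A-type and B-type ephrins, measured 171 to 184 CPM in Hom, 157 to 185 CPM in Het and 183 to 206 CPM in WT embryos. All Hom and Het libraries were below the WT mean. The log2 change was -0.15 in Hom (SE 0.07, adjusted p = 0.165) and -0.20 in Het (SE 0.06, adjusted p = 0.0538). The Het value passed in 7 of 29 alternatives, among them the fit without the libraries that went against their labelled sex (-0.22, adjusted p = 0.0432).

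Among the ephrin ligands in the set, 5 of 6 had values above 0 in Hom embryos, with a median log2 change of 0.20. Efna1, an ephrin ligand outside the set, was called lower in Hom embryos (-0.52, limma adjusted p = 0.0111). The called ephrin ligands Efna2 and Efna1 thus went in opposite directions. Efnb2, a transmembrane ephrin, measured 86.3 to 101 CPM in Hom, 80.4 to 128 CPM in Het and 73.0 to 88.8 CPM in WT embryos. Its log2 change was 0.23 in Hom (SE 0.11, adjusted p = 0.211) and 0.31 in Het (SE 0.10, adjusted p = 0.0703). The Het value passed in 4 of 29 alternatives, among them the fits without the libraries that went against their labelled sex (0.35, adjusted p = 0.0254), without Het F10 (0.41, adjusted p = 0.0173) and without Het M07 (0.35, adjusted p = 0.0313). In the PFC it was 0.24 (SE 0.10, adjusted p = 0.246), with 6 of 6 Het libraries above the WT mean.

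Efna5, a ligand of Epha3, Epha5 and Epha7 with a graded pattern in the developing cortex, had its lowest p in Hom against Het embryos and was not called. It had 21.4, 15.6, 30.1 and 27.2 CPM in Hom F01, F04, F09 and M02. Het embryos ran from 9.54 through a median of 14.8 to 25.0 CPM, against 16.6, 19.4 and 25.2 CPM in WT embryos. The log2 change was 0.16 in Hom against WT (SE 0.17, adjusted p = 0.605), -0.50 in Het against WT (SE 0.16, adjusted p = 0.0656) and 0.66 in Hom against Het (SE 0.17, adjusted p = 0.775). The Hom and Het ranges overlapped. The value in Het against WT passed in 5 of 29 alternatives, among them the fits without the libraries with high Isl1 (-0.57, adjusted p = 0.0428), without Het M07 (-0.56, adjusted p = 0.0237) and without Hom F09 (-0.52, adjusted p = 0.0364).

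Over all classes, no member was called in Het embryos against WT embryos, where 5.83% of all tested genes were called (724 of 12429). By limma, 6 of 40 members (15%) had an unadjusted p under 0.05, beside 22.3% of all tested genes. Epha7 alone among the members did not overlap between Het and WT embryos, beside 2.57% of all tested genes. The count of called members ran from 0 to 5 when single libraries were left out, and the value of 5 came without Het M07. Without the libraries that went against their labelled sex it was 2.

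No member was called in Hom against Het embryos either, where 0.00805% of genes were called (1 of 12429, Myt1l itself). By limma, 6 of 40 members (15%) had an unadjusted p under 0.05, beside 5.12% of all tested genes. No member's libraries separated these groups without overlap, beside 0.901% of all tested genes. The lowest p values were those of Efna5, given above, and Sema3c, a secreted semaphorin. Sema3c measured 2.86 to 5.12 CPM in Hom and 4.12 to 7.50 CPM in Het embryos (log2 change -0.64, SE 0.19, adjusted p = 0.775).

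The plexins lay on one side in the embryo. In Hom against WT, 7 of 7 had log2 values below 0, with a median of -0.17, and in Het against WT 7 of 7 did, with a median of -0.14. With correction for GC content and length these counts were 5 and 6 of 7, and without the libraries with high Isl1 they were also 5 and 6 of 7. Plxna3 alone passed the test. Plxna1, another partner of neuropilins, had 20.3, 29.3, 21.3 and 21.4 CPM in Hom F01, F04, F09 and M02, and 18.4 to 27.0 CPM in Het against 26.4 to 30.9 CPM in WT embryos. Hom F04 lay within the WT range and the other 3 Hom libraries lay below it. The log2 change was -0.30 (SE 0.11, adjusted p = 0.0992), and without Hom F04 it was -0.40 (adjusted p = 0.0459).

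Plxnd1, a semaphorin receptor known from blood vessels as well as neurons, had 4.17 to 5.91 CPM in Hom, 5.09 to 8.27 CPM in Het and 4.66 to 10.2 CPM in WT embryos (Hom against WT -0.48, SE 0.19, adjusted p = 0.120). Markers of endothelium summed to 36.3 to 78.9 CPM in Hom, 50.4 to 105 CPM in Het and 41.3 to 98.6 CPM in WT embryos. In Hom against WT, 6 of these 7 markers had log2 values below 0, none called, with a median of -0.46. Their part in the Plxnd1 value was not tested.

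The neuropilins and semaphorins were not called. Nrp1, the neuropilin that binds Sema3a, had a log2 value of 0.22 in Hom against WT (SE 0.09, adjusted p = 0.146) and Nrp2 had -0.23 (SE 0.16, adjusted p = 0.415). Of 8 semaphorins, 6 had values below 0 in Hom embryos and 4 in Het embryos, over a range from -0.34 to 0.17 in Hom and from -0.33 to 0.30 in Het.

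Over all classes, receptors and ligands in the set gave different counts of direction in Hom embryos. Of 22 tested receptors 17 had values below 0, with a median log2 change of -0.13, and of 18 tested ligands 8 did, with a median of 0.04. Of all 40 members 62.5% had values below 0, against 47.3% of all tested genes, and the medians were -0.08 over members and 0.02 over all genes. Without the libraries with high Isl1, 14 of 22 receptors and 21 of 40 members were below 0. In Het embryos 16 of 22 receptors and 8 of 18 ligands were below 0. These are counts without a test, and the Hom and Het values share their WT libraries.

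**Figure D3:**
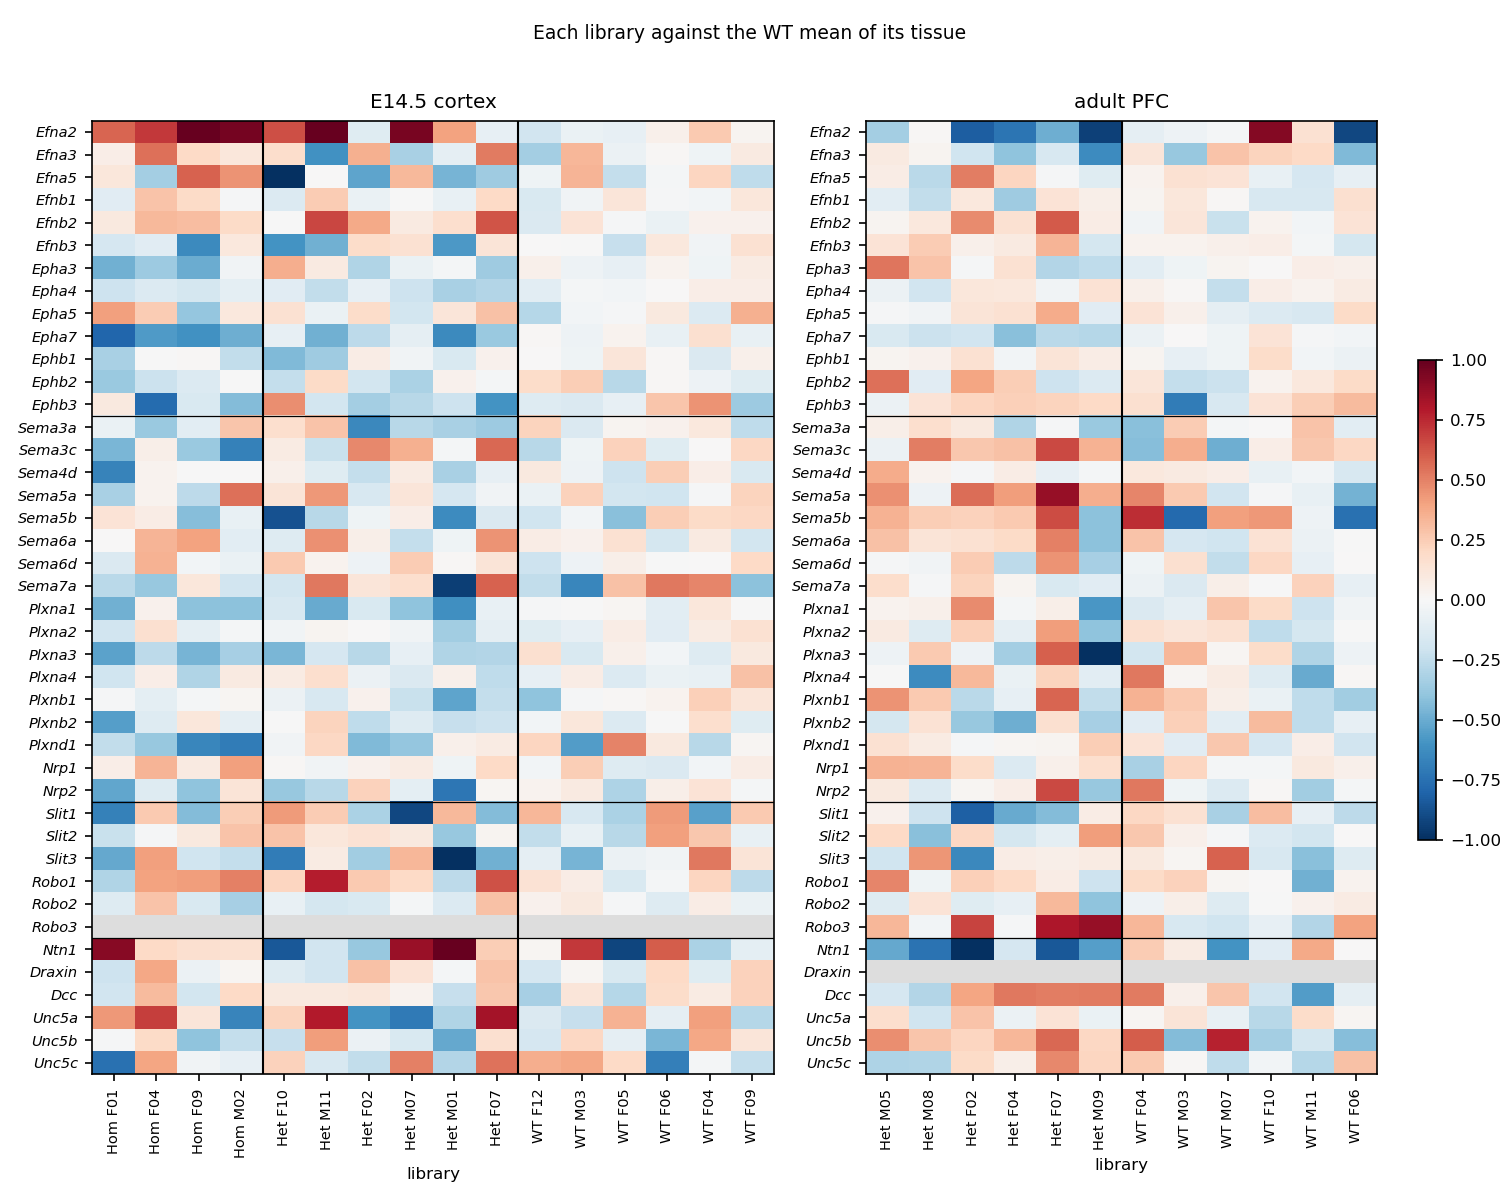
Each member in each library as log2(CPM + 0.5) minus the mean of the WT libraries of the same tissue (red above, blue below, limits -1 and 1; grey where the table has no row), with groups separated by black lines. The row of Epha7 is blue in all 4 Hom and 6 Het embryos and all 6 Het adults, while most other rows mix signs within a genotype.

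The Slit and Robo genes showed no call in any comparison, and the lowest p values were those of Slit1 and Robo3. Slit1 (ENSMUSG00000025020, minus strand of chromosome 19, from 41600257 to 41743665) is a secreted repellent. It measured 3.66, 5.40 and 7.23 CPM in the PFC of Het mice (lowest, median and highest), against 5.35, 7.04 and 8.60 CPM in WT mice. The 3 Het females had 3.66, 4.67 and 4.95 CPM and the 3 WT females 7.98, 8.60 and 5.62 CPM. The 3 Het males had 7.06, 5.85 and 7.23 CPM and the 3 WT males 7.64, 5.35 and 6.43 CPM. Females of the genotypes did not overlap and males did, but the share of all genes with such a split was not counted. Slit1 is shown for its low p, and a difference between the sexes was not shown. The interaction (the Het minus WT difference of males minus that of females) was 0.73 on the log2 scale (SE 0.29, limma adjusted p = 0.523), and the overall genotype change was -0.31 (SE 0.16, adjusted p = 0.405).

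Robo3 (ENSMUSG00000032128, minus strand of chromosome 9, from 37415669 to 37433246) modulates the response of commissural axons to Slits. It had 1.87, 2.95 and 3.91 CPM in Het mice (lowest, median and highest), against 1.47, 1.72 and 2.69 CPM in WT mice. The groups overlapped (log2 value 0.44, SE 0.20, limma adjusted p = 0.328). Robo1 and Robo2, the main Slit receptors of forebrain axons, had values from -0.07 to 0.29 over the genotype comparisons against WT. Slit2 had values from 0.02 to 0.06, and Slit3 from -0.35 to -0.03.

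The netrin pathway genes in the set showed no call either. Unc5d, outside the set, was called higher in Het embryos (0.48, limma adjusted p = 0.0381) and is described further below. Ntn1 (ENSMUSG00000020902, minus strand of chromosome 11, from 68209364 to 68400823) is the secreted netrin. It measured 0.634, 0.980 and 1.56 CPM in the PFC of Het mice (lowest, median and highest), against 1.02, 1.88 and 2.50 CPM in WT mice. All Het libraries were below the WT mean, but the ranges overlapped through WT M07 at 1.02 CPM. The difference was -0.64 on the log2 scale (SE 0.22, limma adjusted p = 0.186), and it passed in 0 of 21 alternatives. In embryos Ntn1 was low, at 0.909 to 1.88 CPM in Hom, 0.204 to 2.88 CPM in Het and 0.170 to 1.56 CPM in WT libraries.

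Unc5b (ENSMUSG00000020099, minus strand of chromosome 10, from 60762593 to 60831581) is a repulsive netrin receptor also known from vessels. It had 3.91, 4.23 and 5.19 CPM in Het adults, against 2.34, 2.71 and 6.03 CPM in WT adults. The Het libraries lay within the WT range (log2 change 0.34, SE 0.20, limma adjusted p = 0.460). Dcc, the attractive netrin receptor, had log2 values of 0.04 in Hom embryos, 0.06 in Het embryos and 0.25 in Het adults, with adjusted p of 0.904, 0.816 and 0.552. Draxin, a secreted ligand of DCC, measured 34.5 to 52.2 CPM in Hom, 34.8 to 48.9 CPM in Het and 35.4 to 46.9 CPM in WT embryos. Its ranges overlapped (Hom against WT 0.04, SE 0.12, adjusted p = 0.867).

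In the adult PFC, 0 of 41 members were called in Het against WT mice, where limma called 0.404% of all tested genes (52 of 12870). The members with an unadjusted p under 0.05 numbered 7 of 41 (17.1%), beside 13.6% of all tested genes. After Epha7 the lowest p values were those of Sema5a and Ntn1. Sema5a, a transmembrane semaphorin, measured 7.87 to 15.3 CPM in Het and 5.77 to 11.6 CPM in WT mice (log2 change 0.44, SE 0.15, adjusted p = 0.186). Of the 41 members 29 had values above 0, with a median of 0.06 against 0.01 over all genes, and 6 of 7 Eph receptors did. With GC and length correction 23 of 41 members were above 0, with a median of 0.01. Among the Eph receptors Epha7 was the exception. Over the classes, PFC values ran from -0.55 to 0.24 for ephrin ligands, from -0.18 to 0.44 for semaphorins, plexins and neuropilins, and from 0.05 to 0.34 for the netrin receptors.

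No interaction of genotype and sex was called among the 12870 genes tested in the PFC, a share of 0%. At an unadjusted p under 0.05 limma listed 1092 genes (8.48%), among them 2 of 41 members (4.88%), Slit1 and Efna5. Efna5 had an interaction of -0.42 (SE 0.17, adjusted p = 0.530). In embryos the Hom and WT groups hold 1 male each, and no such test was made.

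The coefficient of variation of 30 of 40 members was above its WT value in Hom embryos, as it was for 58.3% of all tested genes. The median coefficient of variation was 18.5% in Hom, 17.8% in Het and 12.8% in WT embryos over the 40 tested members. Over all tested genes it was 14.47%, 16.7% and 13.2% in the same order. In the PFC it was 20.0% in Het and 14.4% in WT mice over 41 members, and 13.4% and 11.9% over all tested genes. The difference in spread was not tested. Epha4 had the lowest value of the members in Hom and in WT embryos, at 3.20% and 4.45%.

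Levels in WT animals differed between the adult PFC and the E14.5 cortex for most members. The tables were normalized separately, so these levels are set side by side without a test. Of 40 members in both tables, 12 had all PFC libraries above all E14.5 libraries, 19 had all E14.5 libraries above, and 9 overlapped. Over all 13071 genes in both tables the counts were 5586, 3950 and 3535.

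Receptors of semaphorins mostly had higher CPM in the embryo. In 8 of 9 plexins and neuropilins all WT PFC libraries lay below all WT E14.5 libraries, and Plxnd1 was the exception. They were still measured in the adult, with Plxna2 at 35.9 CPM and Nrp1 at 23.8 CPM on average in the WT PFC. Plxna3 averaged 2.32 CPM ± 0.461 in the PFC, against 36.1 CPM ± 3.18 at E14.5 (SD, n = 6 each), a level 15.5 times as high in the embryo. The embryonic level was 11.6 times the adult level for Epha3, 11.5 times for Ephb2, 6.10 times for Dcc and 4.17 times for Efnb2.

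Other members lay above in the adult. Their PFC level over the E14.5 level was 10.4 for Slit1, 9.83 for Efna3, 9.12 for Unc5c, 9.10 for Sema7a and 8.47 for Unc5a. Epha7 averaged 86.3 CPM ± 4.33 in the PFC and 28.4 CPM ± 1.82 at E14.5 in WT animals (SD, n = 6 each), a ratio of 3.04. Efna5, its ligand, had a ratio of 2.06. Epha7 thus belonged to the 3 of 7 Eph receptors with adult levels above embryonic ones, with Epha5 and Ephb3, while Plxna3 had the lowest PFC over E14.5 ratio of the 40.

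**Figure D4:**
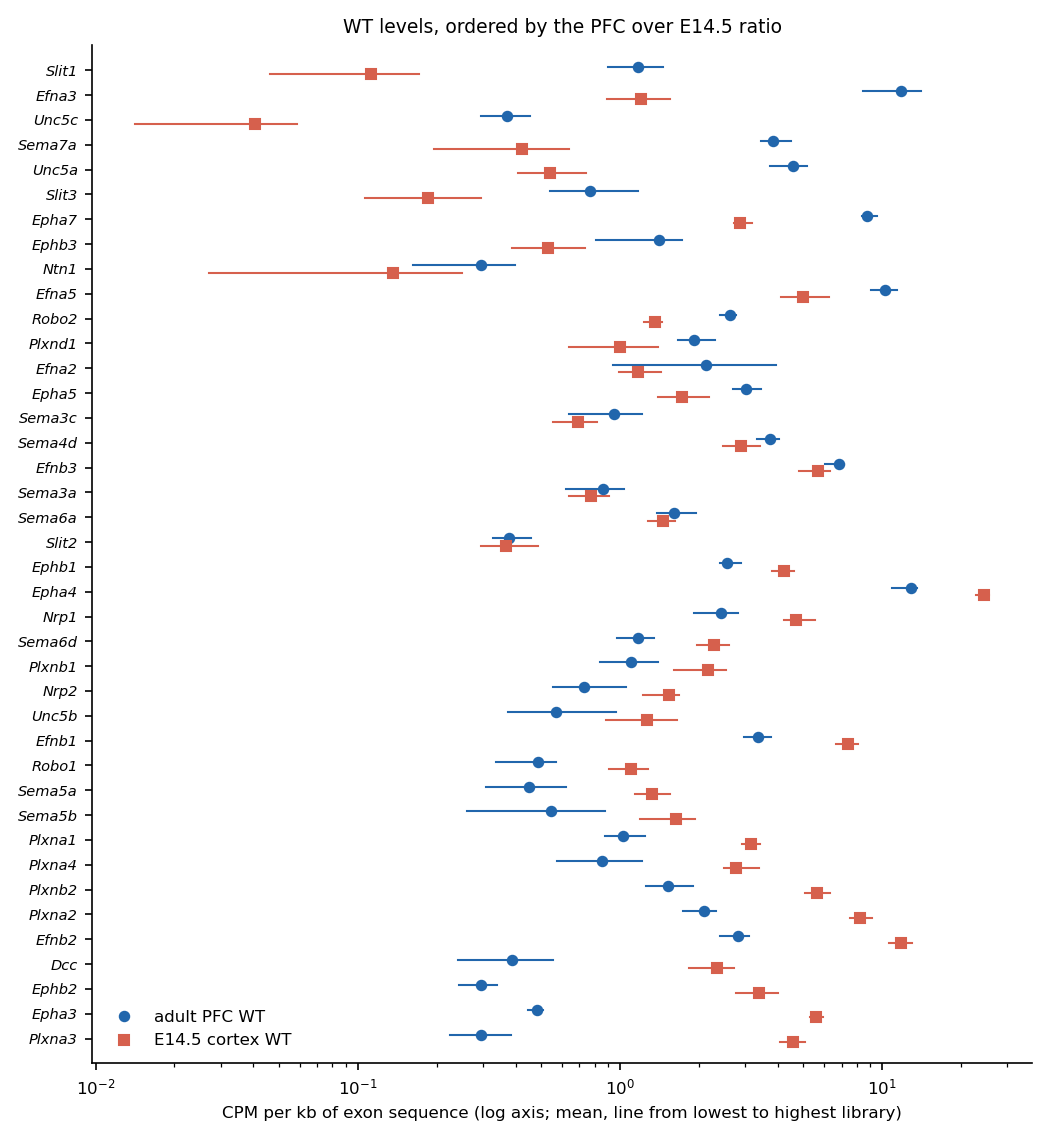
WT levels of 40 members in the adult PFC (blue circles) and the E14.5 cortex (red squares), as mean CPM per kb of exon sequence on a log axis, with lines from the lowest to the highest library and genes ordered by the PFC over E14.5 ratio. Slit1 stands at the top with a ratio of 10.4, and Plxna3 at the bottom with an embryonic level 15.5 times the adult one.

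Per kb of exon sequence, Epha4 was the most abundant member in both tissues, at 12.9 CPM per kb in the PFC and 24.4 CPM per kb at E14.5. In the PFC it was followed by Efna3 at 11.8, Efna5 at 10.2 and Epha7 at 8.73 CPM per kb. At E14.5 it was followed by Efnb2 at 11.8, Plxna2 at 8.23 and Draxin at 7.71 CPM per kb. Epha7 ranked 4 of 41 in the PFC and 16 of 41 at E14.5. Efna3 shares 14.1% of its exon bases with the antisense gene Gm15998 and Plxna1 shares 10.7% with Gm26811. The strand of counting is not given, so reads within the shared bases cannot be told apart.

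Further axon guidance genes were tested in the same fits. Of 39 other axon guidance genes listed, 24 were tested at E14.5 and 29 in the PFC. The list also holds Rgm, Flrt and Rtn4r genes, which lie outside the ephrin, netrin, Slit and semaphorin families. In Hom embryos 2 of 24 were lower and none higher, beside 7.6% of all tested genes called by limma. Het embryos had 1 of 24 higher and none lower, beside 5.83%. The PFC had 0 of 29 called, beside 0.404%. Efna1, another ligand of EphA receptors, measured 16.7 to 25.9 CPM in Hom and 23.3 to 37.0 CPM in WT embryos (log2 change -0.52, SE 0.12, adjusted p = 0.0111). The call was lost without Hom F09 (-0.40, adjusted p = 0.0626) and without the libraries with high Isl1 (-0.56, adjusted p = 0.0568). Ephb4, an EphB receptor best known from veins, had 4.98 to 9.996 CPM in Hom and 9.86 to 13.3 CPM in WT embryos (-0.69, SE 0.18, adjusted p = 0.0215). That call was lost without Hom F09 (-0.56, adjusted p = 0.0969), without Hom M02 (-0.58, adjusted p = 0.0875) and without the libraries with high Isl1 (-0.63, adjusted p = 0.107).

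Unc5d, a netrin receptor family member of developing cortex, had 13.3 to 18.3 CPM in Het and 8.82 to 14.498 CPM in WT embryos (0.48, SE 0.14, limma adjusted p = 0.0381). Its call held in 17 of 29 alternatives. It was lost without any of Het F02, F07 and M01 or WT F04, F05, F06 and F12, with adjusted p up to 0.156.

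Of 56 signalling and adhesion partners, such as cytoskeletal regulators and contactins, 52 were tested at E14.5 and 54 in the PFC. In Hom embryos 2 of 52 were lower and none higher, beside 7.6% of all tested genes called. None was called by limma in Het embryos or the PFC, beside 5.83% and 0.404% of all tested genes. Ablim3, an actin-binding LIM protein, averaged 1.66 CPM ± 0.847 in Hom (SD, n = 4) and 4.27 CPM ± 0.882 in WT embryos (SD, n = 6), with a log2 change of -1.20 (SE 0.26, adjusted p = 0.00699). It was called in 28 of 28 alternatives. Cntn1, a neuronal adhesion molecule, had 3.45 to 5.82 CPM in Hom and 6.30 to 8.41 CPM in WT embryos (-0.64, SE 0.19, adjusted p = 0.0349). Its call held in 20 of 29 alternatives and was lost without any of Hom F01, F04 and F09 or WT F04, F06, F12 and M03, with adjusted p up to 0.135.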

How the data were processed

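Per the labels' protocols, a Zymo kit served for RNA extraction and SMARTer Ultra Low chemistry for library construction. The tools HTSeq, STAR, Bowtie2 and Trimmomatic and the build mm10 are named, per the submitters' processing notes. Their versions and the strand setting of counting were not given. The authors deposited 1 table per tissue of log2 CPM values after RUVr, a step that removes unwanted variation estimated from residuals. The prior count of 2 was read from the values. CPM was recovered from them. The recovered numbers were whole within 0.01 for 100% of values, but they follow the authors' scaling, so sequencing depth is unknown. They summed to between 27827467 and 30811856 in E14.5 libraries and between 19601294 and 21275162 in PFC libraries, and 3 such counts were worth 0.1004 to 0.1031 and 0.1459 to 0.1484 CPM. That floor covers counting error only.

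A gene was tested if 4 or more E14.5 libraries, or 6 or more PFC libraries, had 1 CPM or above, which left 12429 and 12870 genes. The values log2(CPM + 0.5) were fitted with limma 3.58.1 in R 4.3.3 (trend and robust), with genotype and labelled sex as terms and all libraries of a tissue in 1 fit. Adjustment was by Benjamini-Hochberg over all tested genes. A fold on this scale understates the change of low genes. RUVr removed 2 directions from the E14.5 table and 1 from the PFC table, which these p-values do not count, and an alternative with these directions as covariates was run. The fit was tested on simulated data. Coordinates and exon lengths came from GENCODE vM21 (GRCm38, which mm10 names) and sequences from RefSeq on GRCm38.p6.

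The members, the gene lists and the motif were chosen with earlier results of these data known. Values in each library were given for called members and, in classes without a call, for the 2 members with the lowest p. Epha3, Epha4, Efna5, Efnb2, Sema3c, Sema5a, Plxna1 and Plxnd1 were added after their values were seen.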

Additional observations from a re-analysis of the deposited data

Results flagged for a closer look

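In 205 groups of 4 to 6 libraries, 14 had a single library standing apart from the rest by the gap between it and its nearest neighbour. Chance gives about 1 in 20 such groups. In the PFC no member's genotype change differed between sexes by limma's test, and no such test was made in embryos.

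Hom F01 stood apart in 3 members at E14.5. Ntn1 was at 1.88 CPM there against 0.909 to 0.955 CPM in the other Hom libraries, Robo1 at 14.6 CPM against 24.1 to 25.8 CPM, and Sema4d at 13.7 CPM against 22.03 to 22.6 CPM. It is 1 of the 3 libraries with high Isl1. Plxna1 was at 29.3 CPM in Hom F04, against 20.3 to 21.4 CPM in the other Hom libraries.

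Among Het embryos, Ephb3 was at 4.96 CPM in Het F10 against 2.11 to 2.97 CPM, Robo2 at 28.2 CPM in Het F07 against 20.2 to 22.7 CPM, and Plxna2 at 110.7 CPM in Het M01 against 132.3 to 143.3 CPM in the others.

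In the PFC of Het mice, Het M05 stood apart in Ephb3, at 8.72 CPM against 10.03 to 10.8 CPM, and in Sema4d, at 37.4 CPM against 27.1 to 30.2 CPM. Nrp2 was at 13.7 CPM in Het F07 against 6.40 to 9.11 CPM. In WT mice, Nrp2 was at 12.5 CPM in WT F04 against 6.57 to 8.55 CPM and Robo1 at 5.54 CPM in WT M11 against 7.96 to 9.40 CPM. Epha4 was at 87.5 CPM in WT M07 against 104.5 to 109.4 CPM, and Epha7 at 94.7 CPM in WT F10 against 82.9 to 86.5 CPM.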

How the results depend on the processing

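Alternatives varied the pseudocount, the filter, the centring, the covariates, the trend and the libraries. The fit without the libraries with high Isl1 was chosen after seeing the data. Members called in Hom against WT embryos numbered 3. This count was 1 without the libraries with high Isl1 and 2 to 4 with single libraries left out. In Het against WT embryos 0 were called, against 1 with a 5 CPM filter, 3 with median centring, 2 without the sex covariate, 3 with GC and length correction, 2 without the libraries that went against their labelled sex, 1 without those with high Isl1, and 0 to 5 with single libraries left out. In the PFC 0 were called, against 1 with a 5 CPM filter, median centring or GC correction, and 0 to 1 with single libraries left out. For named genes, 1065 alternative values kept direction and call, 39 gained the call, 52 lost it and 1 reversed: Plxna3 in the PFC, at 0.0856 without Het M09 and -0.26 to 0.0856 over single libraries left out.

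Over all genes, the 944 calls in Hom embryos were 511 with the removed directions as covariates, 468 without trend, 414 without the libraries with high Isl1, 1399 with both groups alone, 1164 without the sex mismatches and 489 to 1105 with single libraries left out. The 724 calls in Het embryos were 335 with the directions, 225 without trend, 389 with both groups alone, 1087 without the sex mismatches and 131 to 1176 with single libraries left out. The 401 higher and 543 lower calls in Hom embryos were 294 and 746 with median centring and 241 and 551 with GC correction, and the 353 and 371 in Het embryos were 213 and 509, and 120 and 375. The 1 call in Hom against Het was 0 with the identifier prefix as a block, the directions, no trend, GC correction, both groups alone and without high Isl1, and 0 to 1 with single libraries left out. The 52 calls in the PFC were 2 without sex, 19 with the prefix block, 17 with the directions, 0 without trend and 3 to 130 with single libraries left out. The interaction with sex had 0 calls, and 0 to 13 with single libraries left out. The causes were not tested. No paired analysis was possible because the replicate numbers are the last part of each animal's own identifier and no label says that equal numbers mark a shared litter, batch or day. Unknown depth, 4 Hom embryos and 1 Hom and 1 WT male limit precision.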
